A study of Mus musculus with 6 samples.

Results

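The transcripts described here are those of 10 genes of the eye lens. They are the α-crystallin genes Cryaa and Cryab, the β-crystallin genes Cryba1, Cryba4, Crybb1 and Crybb3, the fibre membrane genes Mip and Lim2, and the transcription factor genes Foxe3 and Maf. They were chosen by gene symbol, and all 10 of them, among 18193 genes with a probe set of their own, were measured by 18 of 45037 probe sets. RNA came from GFP-positive retinal progenitor cells (RPCs) that were sorted from the eyes of ICR mouse embryos at E12, embryonic day 12. The 3 control pools carried the alpha-cre transgene with normal Pax6 alleles, and the 3 mutant pools carried the same transgene with Pax6 flox alleles (Pax6 loxP/loxP in the methods). Each pool was hybridised to 1 Affymetrix array. All 6 pools shared the transgene, in which the Pax6 P0 promoter and the α enhancer drive Cre together with GFP, so that the sort took cells of the distal optic cup in which the promoter was active, and some RPCs of this line escape deletion.

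The lens forms from surface ectoderm that lies against the optic cup. Its anterior epithelium divides, and its posterior cells elongate into fibres that fill with crystallins, the proteins that give the lens its refractive power. α-Crystallins are small heat shock proteins and appear early, while β- and γ-crystallins, together with the membrane proteins of fibres, mark fibre differentiation. Transcription factors such as Pax6, Maf and Foxe3 act upstream in this programme. The lens is a separate tissue from the retina, and at the stage examined it sits directly within the optic cup.

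On the arrays, every one of the 10 lens genes had a positive log2 fold change (mutant minus control) by its brightest probe set, against 47.1% of all genes. The median of the 10 was 0.64 on the log2 scale, and that of all genes was -0.01. For 9 of the 10 every mutant array lay above every control array, against 17% of all genes, and for 12 of the 18 probe sets, against 13.2%. The rises that passed the test were fewer. Calls rest on limma's moderated test and require an adjusted p below 0.10, an unadjusted p below 0.05 and a fold change of 1.5 or more. By this rule 2 of the 10 genes, Cryba4 and Mip, were called higher, against 2.28% of all genes, and none was called lower by limma (none of the 10 had a negative fold change with an unadjusted p under 0.05). Over all 18 probe sets, 5 were called higher, against 1.67% of all probe sets. Those 5 belong to Cryab, Cryba4, Mip and, with 2 probe sets, Maf. In bulk RNA, a change in the number of cells of a type and a change in RNA per cell cannot be told apart.

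The pools differed in spread, as the plot of log2 intensities by array shows. On the mutant arrays the lens genes lay close together, with a median range of 0.20 on the log2 scale over the 10 genes. On the control arrays the median range was 1.01, and control replicate 3 was the lowest control array for 9 of the 10 genes, as it was for 33.2% of all genes. Maf was the exception. For 8 of the 10 genes the control arrays spanned more than the difference between the groups, as they did for 67% of all genes.

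**Figure D1:**
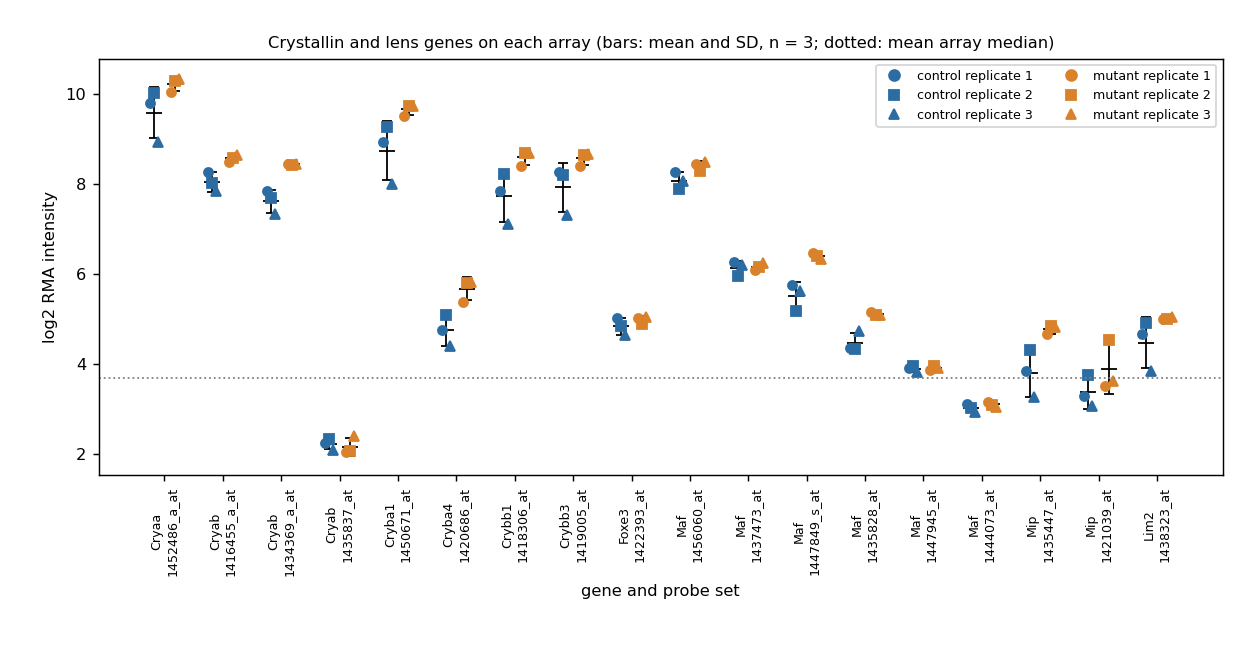
Log2 RMA intensity (y axis) of the 18 probe sets of the 10 lens genes (x axis) on each array, coloured blue for control and orange for mutant, with a marker shape for each replicate number, and black bars for the mean and SD of 3 arrays. Control replicate 3 (blue triangles) lies well below the other control arrays for Cryaa, Cryba1, Crybb1, Crybb3 and Lim2, while the mutant arrays of these genes lie close together, and the dotted line is the mean of the array medians.

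Cryaa, the first of the α-crystallins and a chaperone of the lens, read 9.80, 10.02 and 8.94 (log2 intensity) in the control pools and 10.05, 10.28 and 10.33 in the mutant pools. Every mutant array lay above every control array, but control replicate 2 lay only just below mutant replicate 1. The fold change was 1.56 (0.64 on the log2 scale, standard error [SE] 0.26, limma adjusted p = 0.226), which did not pass.

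Cryab encodes the second α-crystallin, which is also a general small heat shock protein and is not restricted to the lens. Its brightest probe set was at 8.27, 8.03 and 7.84 in control and 8.48, 8.59 and 8.65 in mutant RPCs. The groups did not overlap, and the adjusted p was 0.047, but the log2 fold change of 0.53 was below 1.5-fold, and it was called only without control replicate 1 (0.64). With it, 3 of the 10 genes had an adjusted p below 0.10 (12.4% of all genes). A second Cryab probe set read 7.84, 7.68 and 7.33 in control and 8.45, 8.43 and 8.44 in mutant RPCs. It was called, with a fold change of 1.77 (0.82 on the log2 scale, SE 0.13, limma adjusted p = 0.0168). A further one lay below the array median in every pool, between 2.04 and 2.40, with a log2 fold change of -0.06. The call of the second probe set held without any 1 array, with log2 fold changes from 0.68 to 0.93.

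The β-crystallins are structural proteins of the fibre cells. Cryba1 was at 8.94, 9.26 and 8.0 in control and 9.52, 9.72 and 9.74 in mutant RPCs. The groups did not overlap, yet the difference among the control arrays (a range of 1.26) was larger than that between the groups, a log2 fold change of 0.92 (SE 0.29, limma adjusted p = 0.132). Crybb1 behaved alike, at 7.84, 8.22 and 7.11 in control and 8.40, 8.69 and 8.69 in mutant RPCs, with a difference of 0.86 on the log2 scale (adjusted p = 0.116). Neither was called. Cryba1 and Crybb1 passed, however, once the dimmest 40% of probe sets were left out (adjusted p = 0.0993 and 0.0873), with array weights (adjusted p = 0.0986 and 0.0867) or without control replicate 2 (log2 fold changes of 1.19 and 1.11), and Crybb1 also with array medians subtracted (adjusted p = 0.0984, all from limma).

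Crybb3 was at 8.27, 8.20 and 7.31 in control and 8.40, 8.64 and 8.67 in mutant RPCs, which is a difference of 0.65 on the log2 scale (limma adjusted p = 0.196). Cryba4 was at 4.77, 5.10 and 4.40 in control and 5.38, 5.80 and 5.83 in mutant RPCs. It was called, with a fold change of 1.89 (0.92 on the log2 scale, SE 0.20, limma adjusted p = 0.0456). Its call was lost when control replicate 1 (0.92), mutant replicate 2 (0.85) or the last mutant array (0.84) was left out.

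Mip, the water channel aquaporin 0 of fibre membranes, had a probe set at 3.84, 4.32 and 3.26 in control and 4.66, 4.85 and 4.83 in mutant RPCs. This was called, with a fold change of 1.97 (0.98 on the log2 scale, SE 0.24, limma adjusted p = 0.0666). Control levels lay near the array medians of 3.68 to 3.71, so that the size of the rise is uncertain, and with a pseudocount of 16 it came to 0.52 and was not called. The call was also lost without control replicate 1 (0.99) and without each mutant array in turn (1.03, 0.94 and 0.95). A second, dimmer Mip probe set overlapped between the groups, at 3.29, 3.77 and 3.06 in control and 3.51, 4.53 and 3.63 in mutant RPCs, with a difference of 0.52 on the log2 scale (adjusted p = 0.369). Lim2, a junctional protein of fibre membranes, was at 4.67, 4.92 and 3.85 in control and 5.0, 5.0 and 5.04 in mutant RPCs. Its mutant arrays agree within 0.04, and its log2 fold change of 0.54 (SE 0.25, limma adjusted p = 0.276) did not pass.

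Foxe3, a forkhead factor that keeps the lens epithelium dividing, had the smallest difference of the 10 genes. It was at 5.02, 4.85 and 4.64 in control and 5.02, 4.90 and 5.05 in mutant RPCs, and the groups overlapped. The log2 fold change was 0.15 (SE 0.10, limma adjusted p = 0.46).

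Maf encodes a basic leucine zipper factor that activates crystallin genes in fibre cells and is also used in other tissues. Its 6 probe sets did not agree. The brightest was at 8.26, 7.88 and 8.07 in control and 8.44, 8.29 and 8.48 in mutant RPCs, which is a difference of 0.33 on the log2 scale (limma adjusted p = 0.139). A probe set of intermediate level was called, at 5.76, 5.17 and 5.63 in control and 6.47, 6.39 and 6.33 in mutant RPCs, with a fold change of 1.84 (0.88 on the log2 scale, SE 0.15, limma adjusted p = 0.0225). Its name carries the suffix of probe sets that can also bind related transcripts, and it was called without any 1 array (0.70 to 1.00). The other called probe set was at 4.35, 4.35 and 4.74 in control and 5.16, 5.08 and 5.09 in mutant RPCs, which is a difference of 0.63 on the log2 scale (adjusted p = 0.0265). This call was lost without control replicate 1 (0.57) or control replicate 2 (0.56). The remaining 3 had log2 fold changes of 0.02, 0.02 and 0.08. On none of the called Maf probe sets was control replicate 3 the lowest control array, in contrast to the crystallins.

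TGCTGA is a half-site of the Maf recognition element, and is called the core here. It was searched on both strands in the 250 bases before the transcription start of each gene, in sequences from RefSeq (GRCm38.p6). Such a window was given for 8 of the 10 genes (for Cryab and Maf none was matched). It held the core in 7 of these 8 genes, all but Foxe3, against 18% of all 27025 genes with a window (16.1% of all 32851 windows). AACAAT, a core of Sox factor motifs, was found in 1 of the 8, Crybb1, against 10.9% of all genes with a window (9.42% of all windows). In Crybb1 it did not overlap the Maf core. These matches are descriptions of the letters, not evidence of binding. Maf activates crystallin genes, so the choice of this motif was not independent of the choice of the genes. The match nearest to the start is shown for each gene that has one, with 27 bases on either side. It is read 5′ to 3′ on the strand of the gene, with the core in capitals (TCAGCA where it lies on the opposite strand). The starts of Cryba4 and Crybb1 lie close to each other on chromosome 5 and face in opposite directions.
Cryaa, chr17:31677796-31677855, plus strand, core 108 bases before the start: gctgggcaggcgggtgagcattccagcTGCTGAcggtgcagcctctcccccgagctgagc
Cryba1, chr11:77725318-77725377, minus strand, core 57 bases before the start: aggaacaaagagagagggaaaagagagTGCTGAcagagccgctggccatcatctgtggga
Cryba4, chr5:112252563-112252622, minus strand, the nearest of 3 cores, 77 bases before the start: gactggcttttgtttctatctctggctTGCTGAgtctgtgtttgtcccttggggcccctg
Crybb1, chr5:112255709-112255768, plus strand, core 84 bases before the start: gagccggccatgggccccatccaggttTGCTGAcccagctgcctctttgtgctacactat
Crybb3, chr5:113081619-113081678, minus strand, core 67 bases before the start: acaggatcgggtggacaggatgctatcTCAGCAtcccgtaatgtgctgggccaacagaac
Mip, chr10:128225651-128225710, plus strand, core 132 bases before the start: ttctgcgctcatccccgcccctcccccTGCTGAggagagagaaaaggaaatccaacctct
Lim2, chr7:43429933-43429992, plus strand, core 139 bases before the start: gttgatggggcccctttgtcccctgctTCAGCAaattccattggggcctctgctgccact

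The spread among control pools was wide for many of the lens genes. For 6 of the 10 (Cryaa, Cryba1, Crybb1, Crybb3, Mip and Lim2) the control arrays spanned more than 0.9 on the log2 scale, as did 0.813% of all genes (this limit was set after the values were seen). The same held for 4 of 17 other lens structural genes and 5 of 64 markers of other eye tissues, both described below, so it was not confined to the 10 genes. Summed over the 10 genes, the linear intensity was 2633 and 2853 on the first pair of control arrays, 1611 on control replicate 3, and 3308 to 3867 on the mutant arrays. Control replicate 3 thus held the least lens signal, and each mutant pool held more than any control pool. Without control replicate 3, the median log2 fold change of the 10 genes dropped from 0.64 to 0.38, a change of over 1.5 times. Cryaa came to 0.31, Crybb3 to 0.34 and Lim2 to 0.22, whereas the called Cryab probe set (0.68), Cryba4 (0.74), Mip (0.70) and both Maf probe sets (0.93 and 0.76) stayed called.

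**Figure D2:**
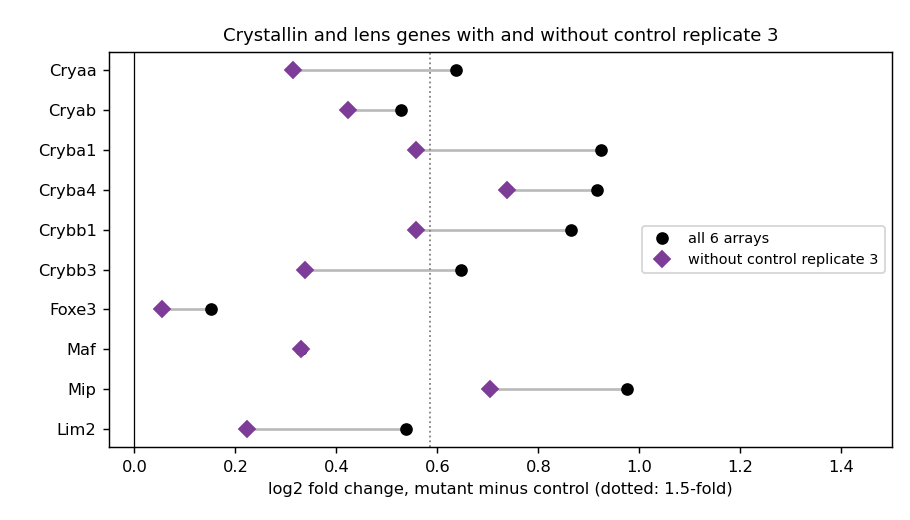
Log2 fold change, mutant minus control (x axis), of the brightest probe set of each of the 10 lens genes (y axis), with all 6 arrays (black circles) and without control replicate 3 (purple diamonds), and a dotted line at a fold change of 1.5. All values stay above 0, and Cryaa moves from 0.64 to 0.31 while Maf stays at 0.33.

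The number of member probe sets called higher was 5 with all arrays and also without control replicate 3, but 3 without control replicate 1 and 3 when the second or the third mutant array was left out, 4 without mutant replicate 1 and 6 without control replicate 2. Without the moderation of the variance none was called, while 6 then had an unadjusted p under 0.05 (11 with limma).

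Of 22 listed other crystallins and fibre genes of the lens, 17 were analysed here. Of these, 5 were called higher and none lower by limma (none fell at an unadjusted p under 0.05), against 2.28% and 0.918% of all genes. The median log2 fold change was 0.47, and it was positive for 15 of the 17, against 47.1% of all genes. For 11 every mutant array lay above every control array, against 17% of all genes. Cryba2, a further β-crystallin, was at 5.90, 6.14 and 5.06 in control and 6.59, 6.81 and 6.80 in mutant RPCs, which is a difference of 1.03 on the log2 scale (SE 0.26, limma adjusted p = 0.069). The γ-crystallins, which are made in fibres, included Cryga, at 7.15, 7.46 and 6.37 in control and 7.88, 8.05 and 8.12 in mutant RPCs, with 1.02 on the log2 scale (adjusted p = 0.0703). Crygn (0.81) and Crygb (0.60) were called too, and a probe set shared by Crygb and Crygc had a log2 fold change of 0.73. Crygb lay below the array median in control RPCs, and with a pseudocount of 16 its difference came to 0.24 and was not called. The Crygb call held in 3 of the 6 fits that each dropped 1 array. Dropping control replicate 3 gave 0.46, which was not called. Near-identical γ-crystallin transcripts may not be told apart by their probe sets. The last of the 5 was Tdrd7 (0.72, adjusted p = 0.00621), an RNA granule protein whose loss causes cataract and which is not restricted to the lens. For Tdrd7, control replicate 3 (6.54) lay between the other control arrays (6.65 and 6.42), and it was called without any 1 array and without the moderation. The fibre genes Crygd (0.49), Gja3 (0.59) and Capn3 (0.58) did not pass, and neither did Hspb1 (0.37) nor Bfsp1, which encodes the beaded filament protein filensin and lay below the array median in both groups. The β-crystallin Crybb2 was below it too, at 2.33, 2.59 and 2.77 in control and 2.99, 3.18 and 2.42 in mutant RPCs, with control replicate 3 as its highest control array.

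Against 33.2% of all genes, control replicate 3 was the lowest control array for 14 of these 17 genes. Without it, 4 of them were called, and Cryba2 and Cryga came to 0.71 each. The count was 2 without control replicate 1, 1 without mutant replicate 1, 2 without mutant replicate 2 and 1 without mutant replicate 3, with Tdrd7 called each time. Cryga was also not called with the replicate number as a block (limma adjusted p = 0.101).

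Many lens regulators are also used by other eye tissues. Of 18 measured ones, 14 had a positive log2 fold change, 3 were called higher and none lower by limma (2 fell at an unadjusted p under 0.05), and 6 had an adjusted p below 0.10. Of all genes, 47.1% had a positive log2 fold change, 2.28% were called higher, 0.918% were called lower and 12.4% had an adjusted p below 0.10. The median log2 fold change of the regulators was 0.11, and its difference from that of the crystallins was not tested. Bmp4, a secreted signal needed for lens induction, rose by 1.57 on the log2 scale, the small Maf gene Maff by 0.66 (adjusted p = 0.011) and the homeobox gene Meis2 by 0.59, and all of them are expressed outside the lens too. The Meis2 call was lost without control replicate 2 (0.51) and also without either of the first pair of mutant arrays (0.56 each). The growth factor receptor gene Fgfr2 (0.53, adjusted p = 0.038) and the surface ectoderm factor gene Tfap2a (0.50, adjusted p = 0.0407) were below 1.5-fold and were not called by limma. Pitx3 came to 0.21 on the log2 scale and Hsf4 to 0.05. Prox1 and Sox1 lay below the array median in both groups. Six3 differed by -0.40 on the log2 scale, which is less than 1.5-fold (limma adjusted p = 0.0303). Sox2 (-0.19, limma adjusted p = 0.115) was the other regulator that fell at an unadjusted p under 0.05. Both Six3 and Sox2 are also in the list of retinal progenitor genes described below. Meis1 came to -0.18. Control replicate 3 was the lowest control array for 4 of the 18, against 33.2% of all genes.

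**Figure D3:**
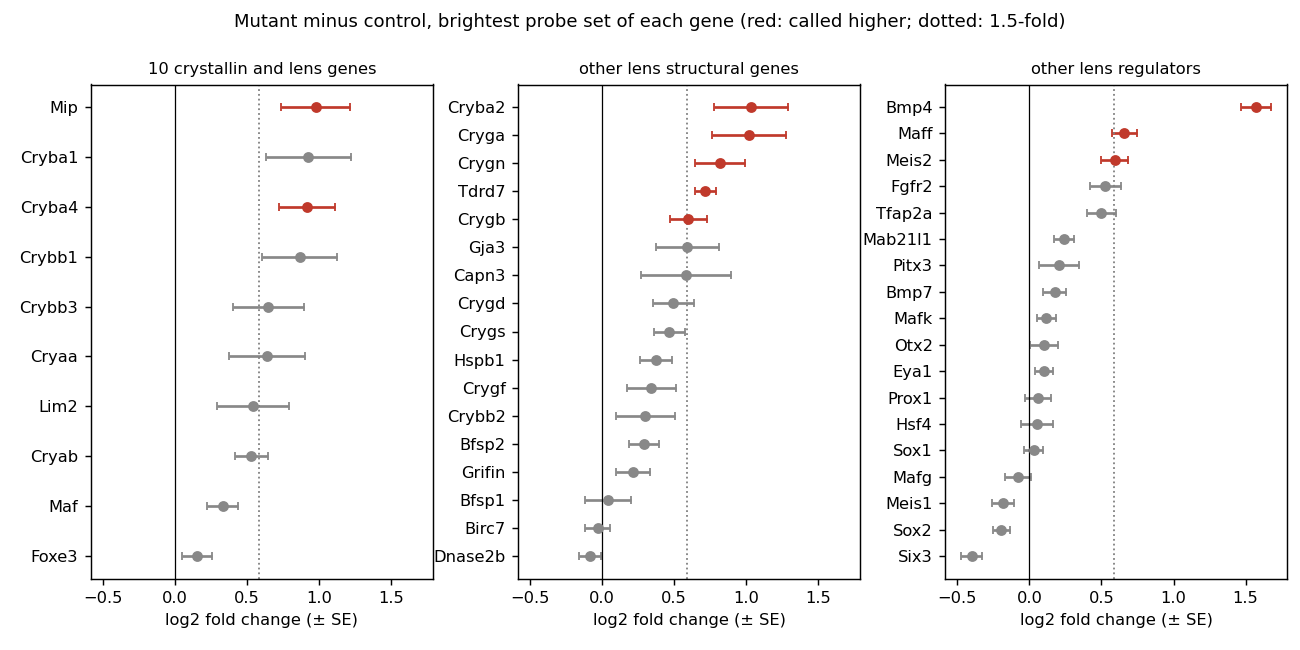
Log2 fold change, mutant minus control, with its standard error (x axis) for the 10 lens genes (left), 17 other lens structural genes (middle) and 18 lens regulators (right), each by its brightest probe set, with red for called genes. The crystallins sit mostly to the right of 0, Cryba2 at 1.03 and Cryga at 1.02 among them, and most regulators lie near 0, with Bmp4 at 1.57.

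Among 11259 genes with a mean above the array median, the genes whose profile over the 6 arrays was most like the mean profile of the 10 lens genes were Cryba2 (Pearson r of 0.997) and Cryga (0.996). The next 3 were Cystm1, Zbtb11 and C77080 (each 0.991), with log2 fold changes of 0.34, 0.27 and 0.20. In all, 58 genes had an r above 0.95, with Gja3, Crygd and Crygn at 0.979, 0.975 and 0.963. The rest of the lens structural genes above the array median had an r from 0.154 to 0.948, among them the called Tdrd7 (0.775). This is a likeness over 6 arrays in 2 groups and was not tested.

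Markers of other tissues of the eye were higher in the mutant arrays too. Of all genes, 2.28% were called higher and 0.918% lower. Of 64 measured genes of pigment epithelium, surface ectoderm and cornea, periocular mesenchyme, endothelium and blood, 33 were called higher and none lower by limma (none fell at an unadjusted p under 0.05). For surface ectoderm and cornea these were 12 of 16 genes (Krt5, Krt14, Krt15, Krt19, Trp63, Epcam, Cdh1, Cldn4, Cldn6, Perp, Tfap2b and Grhl3), with a summed intensity of 2607 to 2774 in control and 3840 to 4322 in mutant RPCs. For pigment epithelium they were 9 of 14 (Tyr, Tyrp1, Mitf, Mlana, Rlbp1, Rdh5, Ttr, Gpnmb and Gpr143), with 6265 to 7731 in control and 10220.4 to 10244 in mutant RPCs. For mesenchyme 6 of 12 (Foxc1, Col1a2, Col3a1, Lum, Dcn and Pdgfrb), for endothelium 5 of 13 (Cdh5, Tek, Tie1, Emcn and Sox17) and for blood 1 of 9 (Hbb-bh1) were called. The summed ranges were 650.2 to 696 against 1002 to 1400 for mesenchyme, 868 to 1110 against 1406 to 1526 for endothelium, and 8627 to 11571 against 12066 to 12881 for blood. Most defining markers of these tissues were above the array median, while Rpe65, Krt12, Twist1 and Hba-a1 lay below it in both groups. The part of these tissues in the lens values was not tested.

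The order of the control pools differed among these tissues. Control replicate 2 was the highest control array for 6 of the 10 lens genes, as it was for 6376 of all 18193 genes. It was the lowest for 12 of 14 pigment epithelium genes and 11 of 13 endothelial genes and 6 of 9 blood genes, as it was for 34% of all genes. For surface ectoderm and cornea, control replicate 2 was instead the highest control array for 8 of 16 genes and in the summed intensity (2774), as it was in the sum for the lens genes. Control replicate 3 was the lowest for 6 of these 16, near its share of 33.2% over all genes. For mesenchyme, the sum was also highest on control replicate 2 (696), and control replicate 3 was the lowest for 2 of 12 genes. On control replicate 3, where the lens signal was lowest, the summed intensities of pigment epithelium (7731) and endothelium (1110) were the highest of the control arrays. The mutant arrays lay above the control arrays in the mean of each of these lists, as seen in the plot of marker lists by array.

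**Figure D4:**
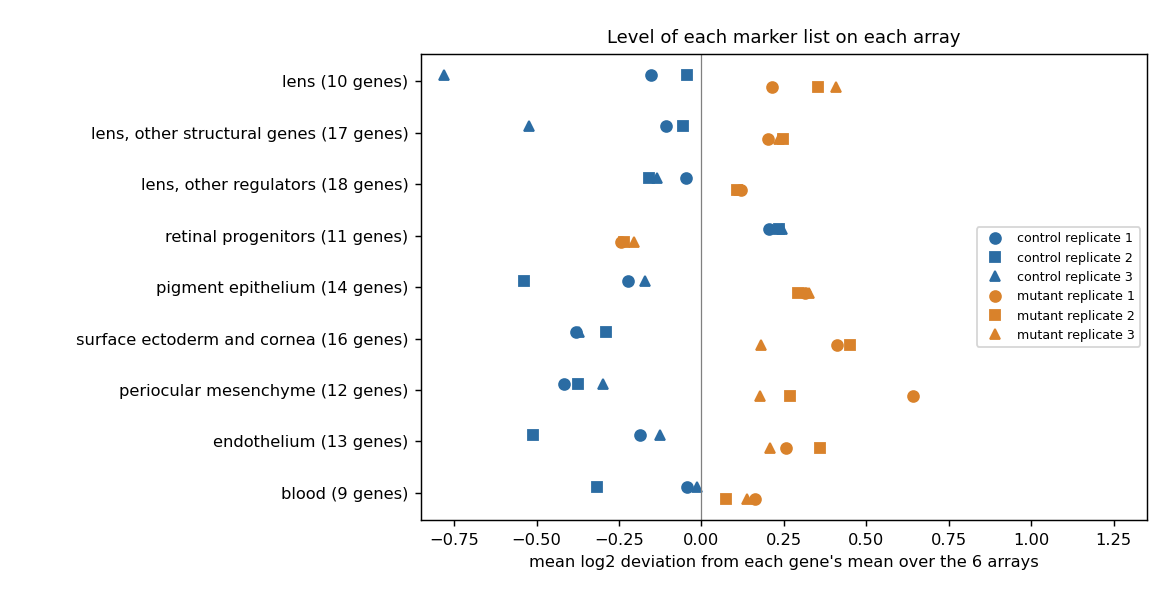
Mean log2 deviation from each gene's mean over the 6 arrays (x axis) for each marker list (y axis), with 1 marker per array, blue for control and orange for mutant arrays. Control replicate 3 stands apart as the lowest array for the 10 lens genes (-0.78) and the other lens structural genes (-0.52), control replicate 2 for pigment epithelium (-0.54), endothelium (-0.51) and blood (-0.32), and mutant arrays are lower in the retinal progenitor list alone.

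When each array was left out in turn, 20 to 31 markers of other tissues were called, fewest without mutant replicate 1 (20) and mutant replicate 2 (21). Pigment epithelium came to 5 without control replicate 2, and surface ectoderm and cornea to 9 to 13. Endothelium came to 2 without control replicate 1, 3 without control replicate 2, 0 without mutant replicate 1 or mutant replicate 2 and 1 without mutant replicate 3, with 10 or more endothelial genes at an unadjusted p under 0.05 from limma in each case. The blood count, of 1 gene, was 0 without control replicate 2, control replicate 3 or any 1 mutant array, and 2 without control replicate 1.

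Array level could not show which cells were sorted, because most defining markers of other eye tissues also lay above the array median. All 11 retinal progenitor genes analysed here were above it in both groups. Of these, Fgf15, Sfrp2 and Dkk3 were called lower in mutant RPCs (log2 fold changes of -1.43, -0.98 and -1.03), against 0.918% of all genes. Pax6, the deleted gene, was lower by 1 of 5 probe sets, at 6.34, 6.44 and 6.14 in control and 4.79, 4.88 and 4.45 in mutant RPCs (limma adjusted p = 0.00329). The others had log2 fold changes from -0.22 to 0.10 and were not called, and whether each lies in the deleted part was not examined. Pairs of arrays within a group had correlations of 0.995 to 0.997 over all probe sets.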

How the data were processed

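GFP-positive cells from 3 control and 3 mutant pools, described as biological repeats, were each hybridised to 1 Affymetrix mouse genome array. The deposited values are linear RMA intensities per probe set, background-corrected and normalised between arrays by the authors (RMA through RACE and Bioconductor in the methods; RMA and Affymetrix Expression Console in the submitters' processing notes; versions not given in the sources used here). Array medians lay between 12.9 and 13.1. Arrays have no sequencing depth, and their number limits the precision.

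Groups follow the sample titles. Values were put on the log2 scale without the 64 hybridisation and spike-in control probe sets, and the groups were compared over the other 45037 with limma 3.58.1 in R 4.3.3, with Benjamini-Hochberg adjustment over all of them. The fold change of 1.5, p of 0.05 and FDR of 10% are those of the methods. SAM, which the methods also name, was not run. The procedure was tested on simulated data. Probe sets were named from the GEO platform annotation, with symbols updated through RefSeq: 34945 had 1 gene, 932 several and 9160 none. Genes were represented by the brightest probe set of their own, and every member probe set was reported. Named besides the members were all called genes of the marker lists, up to 4 bright uncalled ones per list, the 5 genes most like the members and Pax6. Uncalled lens list genes outside this rule (Crygd, Gja3, Bfsp1, Crybb2, Tfap2a, Pitx3, Prox1, Sox1, Hsf4 and Six3, and the dim Rpe65, Krt12, Twist1 and Hba-a1) were chosen after their values were seen. The members and lists were chosen with earlier results of these data known.

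Alternatives were array medians subtracted, a second quantile normalisation, the dimmest 40% of probe sets left out, a pseudocount of 16, no moderation of the variance, array weights, a replicate block, an adjusted p of 0.05, the median of a gene's probe sets, and leaving out each array. Replicate numbers were not taken to pair the samples in the main comparison.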

Additional observations from a re-analysis of the deposited data

How the results depend on the processing

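Over 251 values of the 18 lens probe sets under the alternatives, 226 kept the call, 17 lost a call, 8 gained one, and no called value changed sign. Among uncalled probe sets near 0 some signs did change, with 4 values below 0 where the main value was positive. The 5 calls became 3 with a pseudocount of 16 and 0 without the moderation of the variance (6 with an unadjusted p under 0.05). Without 1 array at a time they were 3 to 6. The 5 called structural lens genes became 1 without the moderation and 3 at an adjusted p under 0.05, and were 1 to 5 without 1 array. The 3 called regulators were 2 to 4. The 33 called markers of other tissues became 6 without the moderation, and were 20 to 31 without 1 array. The median log2 fold change of the 10 genes was 0.38 to 0.82 without 1 array and 0.57 to 0.70 under the other alternatives. With the replicate block 5 lens probe sets, 4 structural genes, 3 regulators and 30 markers were called. The deviations of same-numbered arrays had correlations of -0.01, -0.00064 and -0.0085, so that no pairing by number was seen in the values. Whether pools of the same number were collected or processed together cannot be told from these correlations. The cause of the changes under the alternatives was not tested. For probe sets near the array median, such as those of Mip, signal over background limits the size of a difference.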
